A study of Mus musculus with 24 samples.

Results

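Wnt proteins are secreted ligands that bind frizzled receptors on the cell surface. In the canonical branch this binding keeps beta-catenin from being degraded, so that it enters the nucleus and activates target genes together with transcription factors of the TCF/LEF family. Secreted frizzled-related proteins (Sfrp) and Dickkopf proteins work outside the cell, the former by binding ligands or receptors and several of the latter by binding the LRP co-receptors. In the rodent ovary Wnt4 takes part in the female differentiation of the gonad and in follicle growth, Fzd4 is needed for normal corpora lutea, and Sfrp4 is known from luteinizing granulosa cells. Ovarian transcripts of 10 genes of this pathway were compared between the mouse lines FL1 and DUKsi. The genes are the ligand Wnt4, the receptors Fzd1, Fzd2 and Fzd4, the secreted modulators Sfrp1, Sfrp2, Sfrp4 and Dkk3, and the intracellular components Axin2 and Tcf7l2. They were taken by symbol with earlier results of these data already known, so that the choice was not blind to those results. Every probe set annotated to such a gene alone was used. This gave 21 probe sets of 22626 tested, and 10 genes of 12393 that had a probe set of their own.

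FL1 was selected to generation 130 for an index made of the number and the weight of pups in a first litter. DUKsi comes from the same founder stock, was not selected for any trait, and was bred from brother-sister pairs over roughly 36 generations. Both groups were untreated virgin females 6 to 9 weeks old, with 30 animals per line drawn from 25 litters of FL1 and 26 of DUKsi, and their ovaries were taken at metestrus and freed of attached tissue. Ovarian RNA was combined into 6 pools per line, of 5 animals each by the methods and of 6 by the labels, and each pool was hybridized to 2 arrays, 24 in all. Each line is a single population, so that selection, inbreeding and drift cannot be told apart in a comparison of the lines.

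The tissue label was checked with marker genes of ovarian and neighbouring cell types. The oocyte genes Gdf9, Oosp1 and Zp2 and the granulosa genes Inha, Gja1 and Inhbb had line means between 1436.9 and 15297.1, so the defining markers of ovary were present in both lines. At an adjusted p under 0.01, 3.38% of all probe sets were called. Of 9 luteal markers measured, 5 were higher in FL1 and 0 lower, and of 11 granulosa markers 0 were higher and 3 lower at that threshold. The summed luteal signal was 69055.2 to 79169.1 in the FL1 pools and 36154.5 to 54083.5 in the DUKsi pools, while the summed granulosa signal was 43605.8 to 49941.2 in FL1 and 51214.3 to 59356.5 in DUKsi. The oviduct markers summed to 3875.8 in DUKsi pool 4 and to 318 to 734.5 in the other 11 pools. RNA integrity was read from the 3' to 5' signal ratio of beta-actin. FL1 pools averaged 1.67 ± 0.423 and DUKsi pools 1.27 ± 0.0528 (SD over 6 pools), and p was 0.00216 by an exact permutation test with both sides counted, a value that cannot be smaller in this design. The ratio ran from 1.32 to 2.46 in FL1 and from 1.18 to 1.32 in DUKsi, and the highest was that of FL1 pool 3. It nearly separates the lines, so line and ratio cannot be well told apart in fits that use it as a covariate. Since whole ovaries were measured, fewer cells of a type and less RNA per cell cannot be told apart for any value below.

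Promoters of 6 of the 10 genes, Wnt4, Fzd1, Fzd4, Sfrp2, Axin2 and Tcf7l2, were found in RefSeq sequences of the mouse build GRCm38.p6, with 2 start sites for Tcf7l2. The 250 bases before each start site were searched on both strands for the letters CTTTGA and CTTTGT, which form the core that TCF/LEF factors recognise. Of all 32851 promoter windows of this length in the table, 13.8% held the former, 16.5% the latter and 27.6% either. Fzd1 is shown because it held both, and Axin2 because it is a widely used reporter gene of canonical Wnt signalling. Capitals mark the matches, and each sequence is read 5′ to 3′ on the strand of its gene.
Fzd1, chr5:4758217-4758466, minus strand: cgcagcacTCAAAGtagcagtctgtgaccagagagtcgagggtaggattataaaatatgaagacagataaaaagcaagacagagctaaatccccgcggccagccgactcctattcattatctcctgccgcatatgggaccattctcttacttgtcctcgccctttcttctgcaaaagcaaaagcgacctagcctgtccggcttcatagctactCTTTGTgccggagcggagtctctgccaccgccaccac
Axin2, chr11:108920099-108920348, plus strand: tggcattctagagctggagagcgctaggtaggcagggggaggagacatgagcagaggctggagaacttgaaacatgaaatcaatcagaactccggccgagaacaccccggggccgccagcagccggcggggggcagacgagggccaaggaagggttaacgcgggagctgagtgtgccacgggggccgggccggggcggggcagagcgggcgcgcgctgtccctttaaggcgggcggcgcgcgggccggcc
In Fzd1 the match nearer to the start site was CTTTGT, 37 bases before it, and the other was CTTTGA on the opposite strand, printed here as its reverse complement, from 242 to 237 bases before the start. The Axin2 window held neither core, nor did those of Wnt4, Fzd4 and Sfrp2 or of the first Tcf7l2 start site, while the second Tcf7l2 start site had CTTTGT 14 bases before it. A match of letters is a description of the window, and nothing about binding was measured.

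None of the 10 genes passed the test between the lines at an adjusted p under 0.01 (limma on log2 signals, Benjamini-Hochberg over all 22626 probe sets), and 0 did by the methods' t-test. At that threshold 3.38% of all probe sets were called. At an adjusted p under 0.05, which called 6.91% of all probe sets, 2 genes were called, Sfrp4 with a higher and Fzd2 with a lower mean in FL1. Over 28 alternatives Sfrp4 was under 0.05 in 24 and Fzd2 in 13. At an unadjusted p under 0.05, which 19.8% of all probe sets met, there were 4 of the 10 genes by limma and 4 by the methods' t-test. In limma these were Sfrp4, Fzd2, Wnt4 and Tcf7l2. In no member probe set were the FL1 and DUKsi pools free of overlap (0 of 21), against 4.62% of all probe sets. Of the 21 probe sets 18 had a lower mean log2 signal in FL1 and 3 a higher one, with a median difference of -0.29, whereas 61.7% of all probe sets were lower and their median difference was -0.07. Of the 10 genes, each by its brightest probe set, 7 were lower and 3 higher, and the median was -0.18. After quantile normalization 17 probe sets were lower and the median of the genes was -0.17, and after scaling to the same median 17 were lower and it was -0.10. The probe sets of 1 gene read the same transcripts or parts of them, and are not independent of each other.

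**Figure D1:**
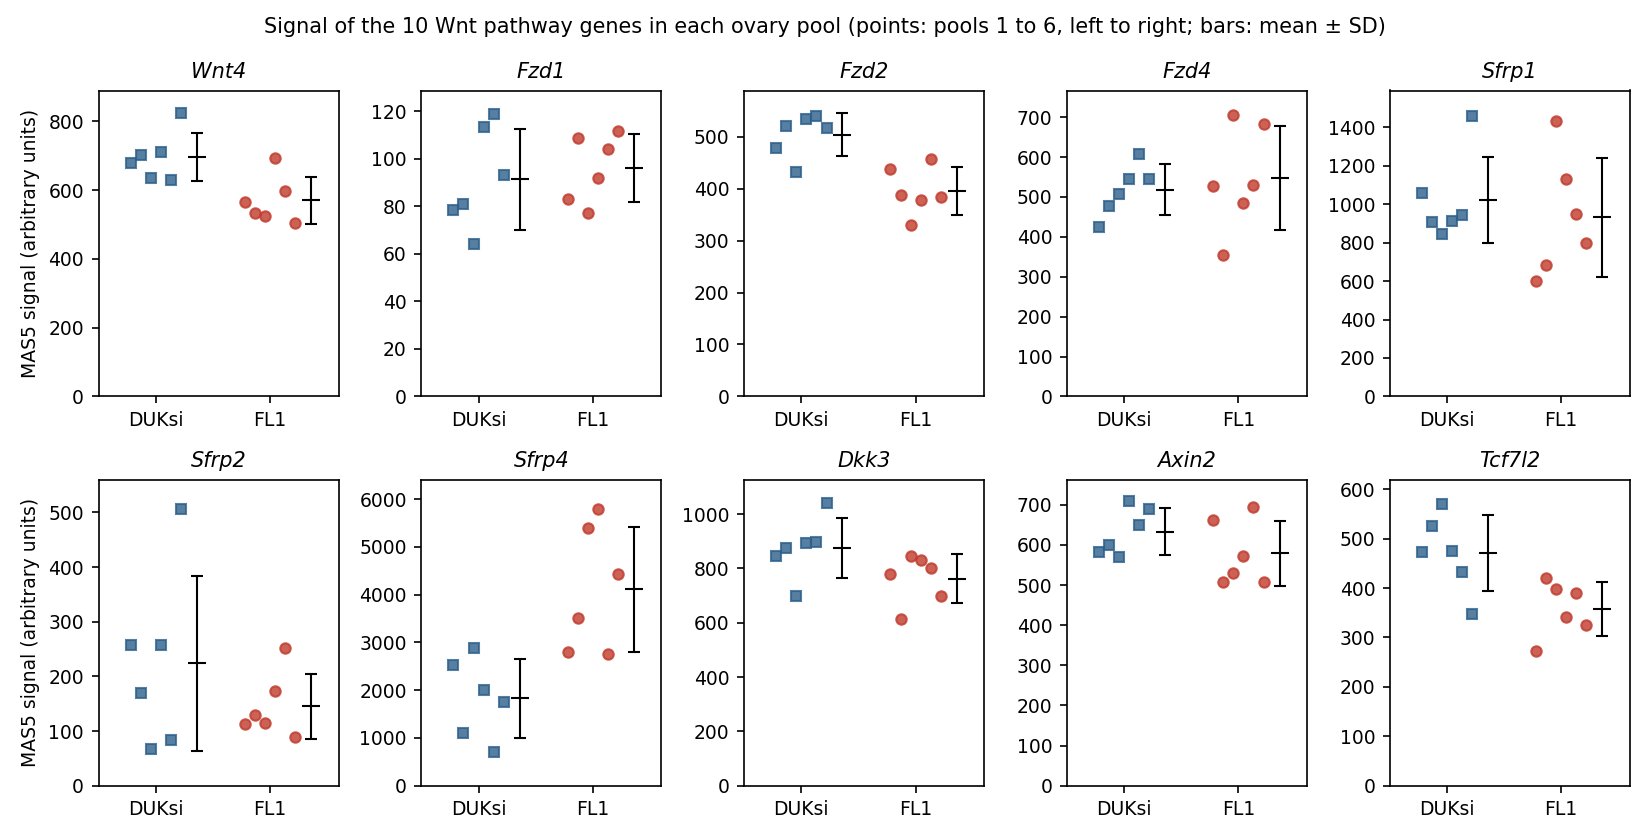
MAS5 signal in arbitrary units (linear axis from 0) of the brightest probe set of each of the 10 genes, in the 6 pools of DUKsi (squares) and of FL1 (circles), with the mean ± SD of each line beside them. Sfrp4 pools of FL1 run from 2750.0 to 5787.6 and those of DUKsi from 700.6 to 2886, and in every gene the lines overlap.

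The ligand Wnt4, read by 1 probe set, had signals of 565.9, 533.4, 525.8, 693.8, 596 and 505.6 in FL1 pools 1 to 6. In DUKsi pools 1 to 6 the signals were 679.5, 701.2, 636.6, 712, 630.0 and 823.3. The FL1 pools lay below the DUKsi pools but for FL1 pool 4, which exceeded 3 pools of DUKsi, and FL1 was the lower one in 33 of 36 pairs of pools. The means were 570.1 ± 68.5 in FL1 and 697.1 ± 70.2 in DUKsi (SD, n = 6), a log2 difference of -0.29 (SE 0.0913, 95% interval -0.49 to -0.10, limma adjusted p = 0.0704). The arrays of a pool differed by a median of 0.109 on the log2 scale for this probe set, against 0.231 over all probe sets and 0.151 over the brighter 60% of them. Under all 28 alternatives the difference was below 0, from -0.40 to -0.19, and in none of them did it pass the test.

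Among the receptors Fzd2, a frizzled without introns in its coding sequence, was read by 3 probe sets, and all of them had a lower mean in FL1. The brightest gave 437.3, 387.5, 329.9, 378.5, 457.6 and 384 in FL1 pools 1 to 6, and 478.2, 521.5, 431.8, 533.8, 540.6 and 516.4 in the DUKsi pools. Only FL1 pools 1 and 5 reached the lowest DUKsi pool, so that FL1 was lower in 34 of 36 pairs. The mean signal was 395.8 ± 45.6 in FL1 and 503.7 ± 41.4 in DUKsi, a log2 difference of -0.35 (SE 0.0937, 95% interval -0.55 to -0.15, limma adjusted p = 0.0328). The other probe sets of the gene differed by -0.33 (adjusted p = 0.198) and -0.29 (adjusted p = 0.136). The adjusted p exceeded 0.05 when any of FL1 pools 2, 4 and 6 and of DUKsi pools 2, 4, 5 and 6 was left out (0.0556 to 0.0811), after quantile normalization (0.0677), after scaling to the same median (0.136) and with the second array of each pool alone (0.243). With the beta-actin ratio as a covariate the difference of the brightest probe set was -0.21 (adjusted p = 0.174), and the part of RNA integrity in it was not tested further.

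Fzd1 and Fzd4 had similar means in both lines. Fzd1 ran from 77.1 to 111.9 in the FL1 pools, with a median of 98.1, and from 64 to 118.8 in the DUKsi pools, with a median of 87.2. Its log2 difference was 0.09 (95% interval -0.30 to 0.49, adjusted p = 0.834), and its arrays of the same pool differed by a median of 0.504. Fzd4 is a receptor for Wnt ligands and also for norrin, a ligand outside the Wnt family. Its brighter probe set ran from 353.3 to 705.9 in FL1 and from 423.5 to 608.8 in DUKsi, with means of 547.1 ± 130.7 and 518.1 ± 64.1. The log2 difference was 0.05 (95% interval -0.26 to 0.36, adjusted p = 0.885), which leaves differences of either sign within the interval. The second Fzd4 probe set was dim, with a mean of 25 in FL1 and 38.4 in DUKsi, under the 20th percentile of all signals, 48.4. Its difference of -0.80 (adjusted p = 0.301) is of the opposite sign to that of the brighter probe set.

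**Figure D2:**
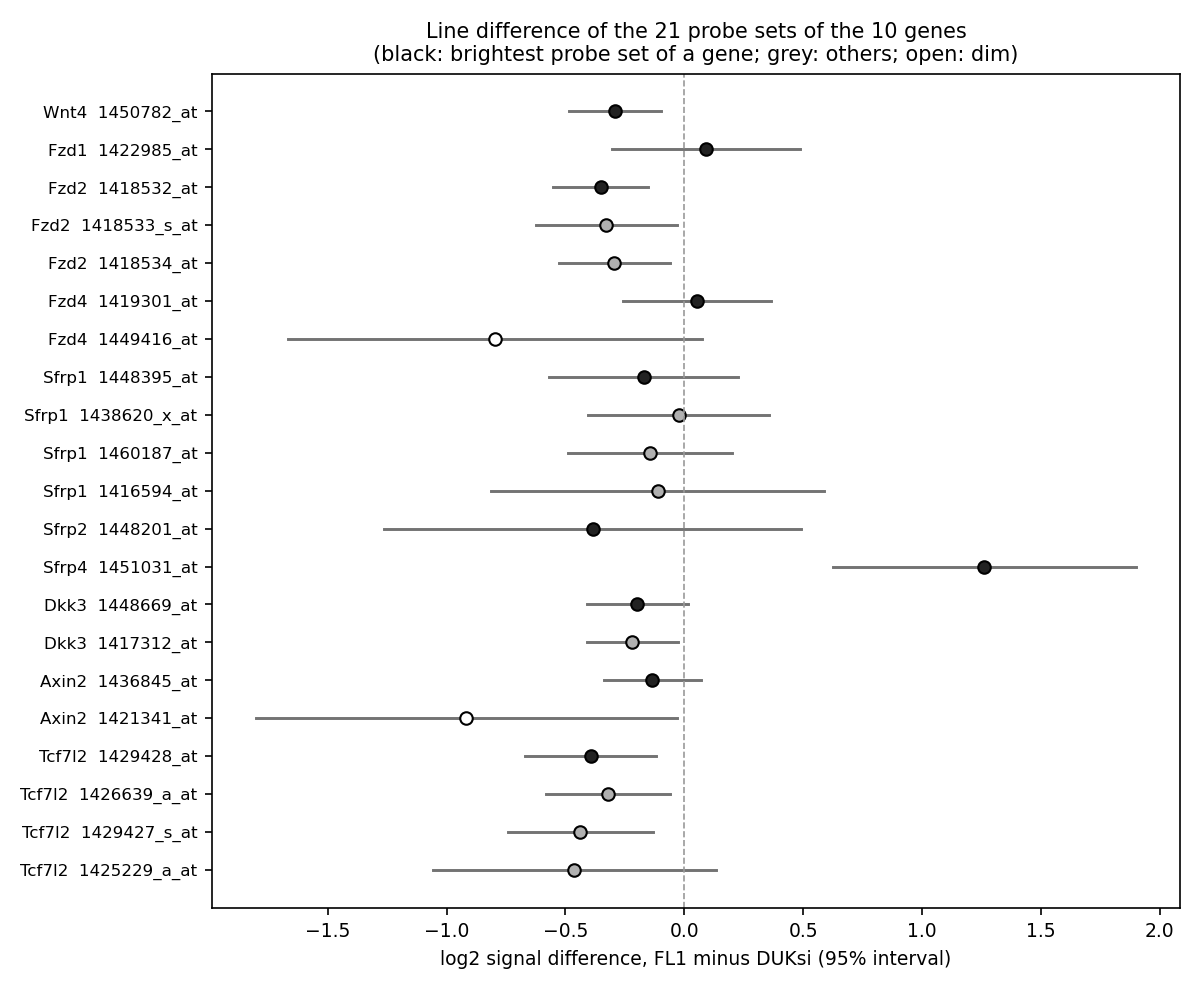
Log2 signal difference, FL1 minus DUKsi, of the 21 probe sets with the 95% interval of the limma fit. Black points are the brightest probe set of a gene, grey points the others, and open points the 2 dim probe sets. The intervals of 9 probe sets, namely Wnt4, all 3 of Fzd2, 3 of 4 of Tcf7l2, 1 of Dkk3 and the dim one of Axin2, lie below 0 and that of Sfrp4 lies above 0, from 0.63 to 1.90, before adjustment for the number of tests.

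Of the 10 genes, Sfrp4 had the largest difference between the lines and the only one above 1 on the log2 scale. Its signals in FL1 pools 1 to 6 were 2790.7, 3514.2, 5395.7, 5787.6, 2750.0 and 4435.1. In DUKsi pools 1 to 6 they were 2519.4, 1098, 2886, 2006.8, 700.6 and 1744.3. The FL1 pools were all above 5 of the 6 DUKsi pools, and DUKsi pool 3 exceeded FL1 pools 1 and 5, so that FL1 was higher in 34 of 36 pairs. FL1 pools averaged 4112.2 ± 1305.3 and DUKsi pools 1825.8 ± 829.5 (SD over 6 pools), a ratio of 2.25 and a log2 difference of 1.26 (SE 0.299, 95% interval 0.63 to 1.90, limma adjusted p = 0.0169). The arrays of a pool differed by a median of 0.0956 on the log2 scale, less than the spread among the pools of a line.

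The call for Sfrp4 depended on the model. Without DUKsi pool 3 the log2 difference was 1.43 and the adjusted p 0.00845, which passes the test. With all 24 arrays and the pool as a random block the adjusted p was 0.00022, which also passes. That fit took a common correlation within pools for all probe sets. The arrays of a pool differed by a median of 0.0956 for Sfrp4 and of 0.231 over all probe sets. The adjusted p of Sfrp4 in that fit can therefore be too small. With the beta-actin ratio as a covariate the difference was 0.93 and the adjusted p 0.1, and the methods' t-test gave an adjusted p of 0.0683 on linear and 0.0826 on log2 signals. The difference was positive under all 28 alternatives, from 0.93 to 1.43.

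The luteal markers, whose summed signal did not overlap between the lines, also had higher signals in FL1. Within DUKsi, pool 5 had both the lowest Sfrp4 signal, 700.6, and the lowest luteal sum, 36154.5, but the highest Sfrp4 signal was that of pool 3 and the highest luteal sum that of pool 1. Within FL1, pool 4 was highest in both, while the lowest Sfrp4 signal was that of pool 5 and the lowest luteal sum that of pool 1. On log2 values, the correlation of Sfrp4 with the luteal sum over the 6 pools was r = 0.925 in DUKsi (exact permutation p = 0.0111, adjusted over both lines 0.0222; Spearman's rho = 0.829, p = 0.0583, adjusted 0.103). In FL1 it was r = 0.739 (exact permutation p = 0.115, adjusted 0.115; rho = 0.771, p = 0.103, adjusted 0.103). With the 2 pools farthest from the median luteal sum left out, r over the other 4 was 0.585 in FL1 (without pools 4 and 6). In DUKsi it was 0.315 without pools 2 and 5, the farthest on the log2 scale, and 0.77 without pools 1 and 5, the farthest on the linear scale, so that its size depended on which pools were left out. Leaving out the outermost pools narrows the range of the sum, which by itself can lower r. With 4 pools left, these values cannot decide how far the correlation rests on those pools. The most abundant luteal markers were Hsd3b1, which makes progesterone from pregnenolone, Fdx1, the electron donor of mitochondrial steroid hydroxylases, and Cyp11a1, the side chain cleavage enzyme. The sum is of linear signals, so that these steroid synthesis genes weigh most in it. Hsd3b1 averaged 17777 in FL1 and 14808.9 in DUKsi (log2 difference 0.26, limma adjusted p = 0.024), which did not pass the test. Fdx1 averaged 15979.6 and 11564.4 (log2 difference 0.48, adjusted p = 0.0059). The dimmer markers Ptgfr and Akr1c18 averaged 1152.6 and 536.1 in FL1 and 367.8 and 194.1 in DUKsi (adjusted p = 0.00373 and 0.244). Whether the sum is particular to luteal cells was not tested. Cyp11a1 had a mean of 11047.0 ± 894.9 in FL1 and 5761.9 ± 1422.2 in DUKsi (log2 difference 0.98, adjusted p = 0.000376). The part of luteal tissue in the Sfrp4 difference was not tested.

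**Figure D3:**
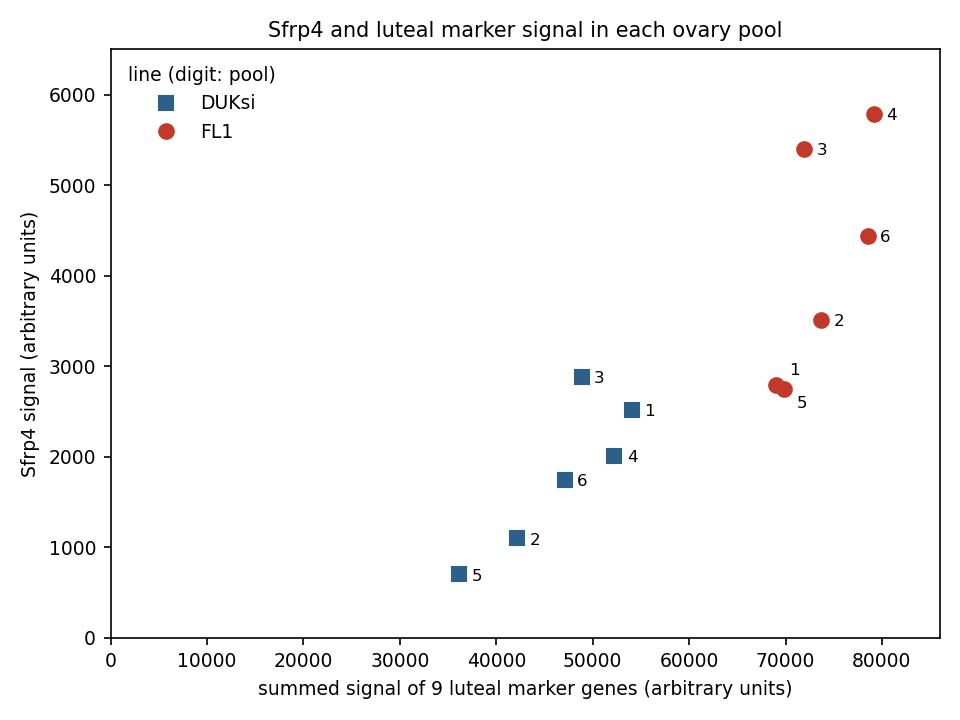
Sfrp4 signal against the summed signal of 9 luteal marker genes, both in arbitrary units on linear axes from 0, in each of the 12 pools. Squares are DUKsi and circles FL1, and the digit is the pool. The luteal sums of the lines are separate, with the highest DUKsi pool at 54083.5 and the lowest FL1 pool at 69055.2, whereas the Sfrp4 signals overlap between 2750.0 and 2886.

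Sfrp1, which binds both Wnt ligands and frizzled receptors, was read by 4 probe sets with log2 differences of -0.17, -0.02, -0.14 and -0.11, none past the test. The brightest had signals of 597.8, 681.9, 1431.3, 1130.1, 951.2 and 797.2 in FL1 and of 1057.9, 905.7, 846.1, 911.2, 945.6 and 1458.0 in DUKsi. The highest pool was FL1 pool 3 in the one line and DUKsi pool 6 in the other, the rest overlapped, and the means were 931.6 ± 310.3 and 1020.8 ± 225.4 (95% interval of the log2 difference -0.57 to 0.23, limma adjusted p = 0.662). The probe sets of Sfrp1 were at odds in FL1 pool 3. That pool was the highest FL1 pool by 2 of them, at 1431.3 and 510.0, and the lowest by the other two, at 170.6 and 64.8, and it was also the pool with the beta-actin ratio of 2.46. Without FL1 pool 3 the difference of the brightest probe set was -0.31 (adjusted p = 0.25), without DUKsi pool 6 it was -0.06, and without FL1 pool 1 also -0.06. It was -0.56 with the beta-actin ratio as a covariate (adjusted p = 0.0539) and -0.03 with the second array of each pool alone.

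Sfrp2, a close relative of Sfrp1, varied more among pools than between lines. Its signals were 112.6, 128.4, 114.6, 173.4, 251.8 and 89.2 in FL1 and 257.2, 169.8, 67.4, 257, 83.7 and 505.8 in DUKsi. The DUKsi pools enclosed the whole range of FL1, with DUKsi pool 3 lowest and pool 6 highest of all 12. The means were 145 ± 59.3 and 223.5 ± 160.5, and the log2 difference was -0.39 (95% interval -1.26 to 0.49, limma adjusted p = 0.656). Without DUKsi pool 6 it was -0.08. In that pool the summed oviduct and adipocyte markers were 593.8 and 271. The other DUKsi pools ranged widely, from 449.8 to 3875.8 and from 250.6 to 1370.3. The part of carried-over tissue in the Sfrp2 signal was not tested.

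Dkk3, a Dickkopf protein that, unlike Dkk1, is not known as a strong blocker of the LRP co-receptors, was read by 2 probe sets of like size and sign. By the brighter one FL1 pools ran from 614.4 to 847.1 with a median of 790.3, and DUKsi pools from 697.4 to 1041.2 with a median of 883.6. The log2 difference was -0.20 (95% interval -0.41 to 0.02, limma adjusted p = 0.292). By the other one the difference was -0.22 (95% interval -0.41 to -0.03, adjusted p = 0.181). There the DUKsi pools lay close together, from 593.2 to 642.8, and 1 FL1 pool, pool 2 at 617.1, lay within that range while the other five were below it.

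Inside the cell, Axin2 is a scaffold of the complex that marks beta-catenin for degradation and is itself switched on by canonical Wnt signalling. Its brighter probe set gave 661, 507.6, 530.8, 572.1, 693.6 and 508.5 in FL1 and 581.4, 599.4, 569.4, 708.6, 649.3 and 688.3 in DUKsi. FL1 pools 1 and 5 lay among the DUKsi pools, FL1 pool 4 at their lower end, and the other three below them. The mean was 578.9 ± 80.4 in FL1 and 632.8 ± 58.1 in DUKsi, a log2 difference of -0.13 (SE 0.0966, 95% interval -0.34 to 0.07, adjusted p = 0.48). The second Axin2 probe set was dim, at means of 21.6 and 36.5, and differed by -0.92 (adjusted p = 0.234).

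Tcf7l2, a TCF family transcription factor that pairs with beta-catenin on target genes, was read by 4 probe sets, and each had a lower mean in FL1. By the brightest the pools were 272.4, 420.2, 398, 342.4, 389.5 and 324.6 in FL1 and 472.1, 526.4, 569.4, 475.3, 432.6 and 347.5 in DUKsi. All but DUKsi pool 6 exceeded the highest FL1 pool. The mean was 357.8 ± 55 in FL1 and 470.6 ± 76.8 in DUKsi, a log2 difference of -0.39 (95% interval -0.67 to -0.12, limma adjusted p = 0.0882). The other probe sets differed by -0.32 (adjusted p = 0.147), -0.44 (adjusted p = 0.0886) and -0.46 (adjusted p = 0.389). FL1 pool 1 was the lowest of the 12 pools by the brightest of them, at 272.4, and also by 2 others, at 117.3 and 53.2, but the highest FL1 pool by the remaining one, at 258.2. The probe sets may read different splice forms, and the forms they read were not resolved here.

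**Figure D4:**
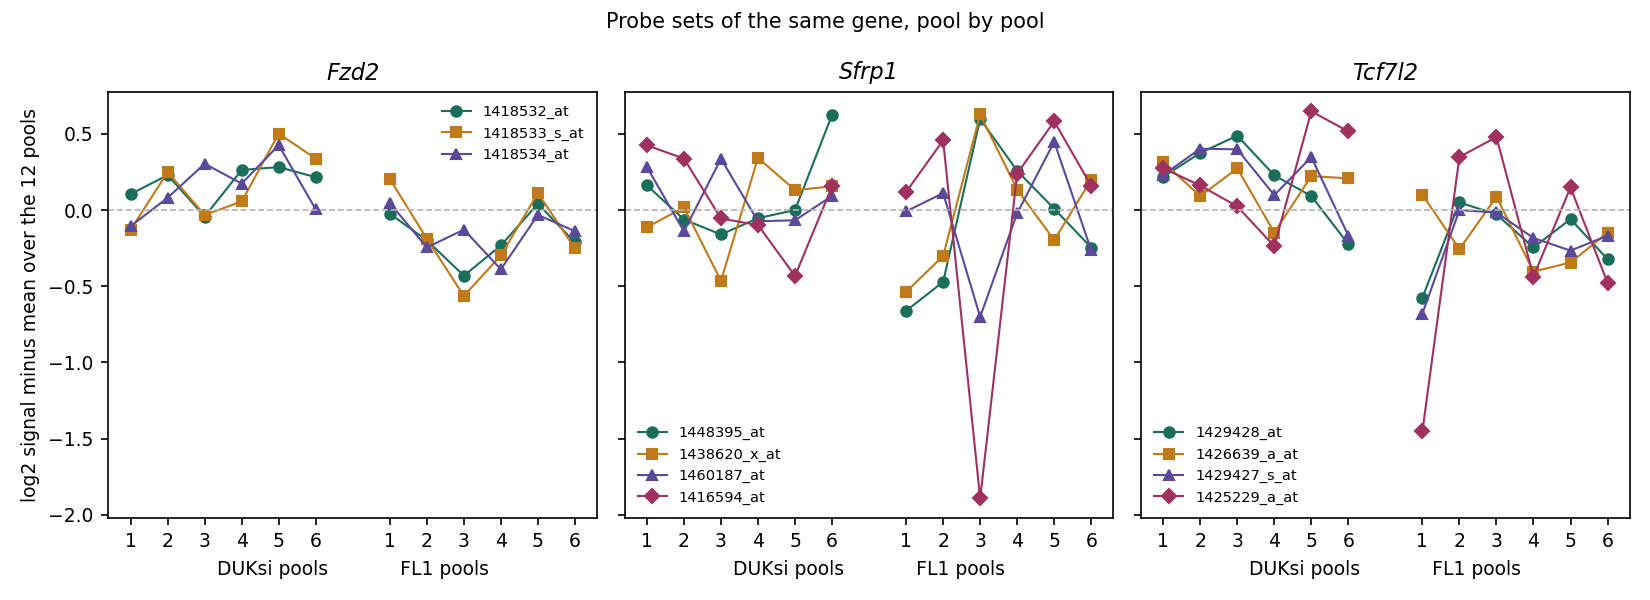
Log2 signal of each probe set of Fzd2, Sfrp1 and Tcf7l2, less its mean over the 12 pools, in DUKsi pools 1 to 6 (left of each panel) and FL1 pools 1 to 6 (right). All 3 Fzd2 probe sets have a lower mean in FL1, while in FL1 pool 3 the Sfrp1 probe sets part, with signals of 1431.3 and 510.0 by 2 of them and of 170.6 and 64.8 by the others, and in FL1 pool 1 a single Tcf7l2 probe set, at 258.2, stands above the other 3.

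Beyond the 10 genes, 92 other genes of the pathway were listed by role and 83 of them were measured. At an adjusted p under 0.01, 3 of the 83 were higher in FL1, 0 lower, and 80 did not pass. This is 3.61% of the 83, close to the 3.38% of all probe sets called. The median log2 difference of the 83 was -0.08, close to that of all probe sets, -0.07, and 53 means were lower and 30 higher. The 3 genes were Lgr5, Tle2 and Wisp2, each in another role. Lgr5, a receptor for R-spondins that strengthens Wnt signalling, had a mean of 465.2 ± 62.5 in FL1 and 303.3 ± 53.3 in DUKsi (log2 difference 0.63, SE 0.126, limma adjusted p = 0.00547), with no overlap of the pools. Tle2, a Groucho co-repressor that binds TCF factors, had 819.2 ± 92 and 591.3 ± 39 (log2 difference 0.47, SE 0.0826, adjusted p = 0.00212), also with no overlap. Wisp2, now named Ccn5, is a secreted protein first described as induced by Wnt1, and had 401.3 ± 95.8 and 230.1 ± 21 (log2 difference 0.77, SE 0.149, adjusted p = 0.004), again without overlap. Frzb and Ctnnb1, which did not pass, were also free of overlap. In all, 5 of the 83 genes were free of overlap, against 4.62% of all probe sets. With the beta-actin ratio as a covariate Lgr5 (adjusted p = 0.0176) and Wisp2 (adjusted p = 0.0414) no longer passed, while Tle2 did (adjusted p = 0.00264). The log2 differences were then 0.64 for Lgr5, 0.55 for Wisp2 and 0.55 for Tle2, so that the Lgr5 estimate did not shrink. As the ratio nearly separates the lines, a call lost or kept in this fit does not measure the part of RNA integrity. Lgr5 also lost the call when any of FL1 pools 2, 4 and 6 and of DUKsi pools 1, 2 and 6 was left out, at adjusted p of 0.0121 to 0.0164. Wisp2 lost it when any of FL1 pools 2, 4 and 6 and of DUKsi pools 1, 2, 3 and 5 was left out, at adjusted p of 0.0102 to 0.0124, while Tle2 passed whichever single pool was left out. Tle2 did not pass with the second array of each pool alone (adjusted p = 0.0554), by the methods' t-test on linear signals (adjusted p = 0.0102) or with the pool number as a replicate block (adjusted p = 0.0177).

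In the other roles none passed. Of 22 other ligands and their secretion or R-spondin partners, those with the highest mean signal were Wls, which carries Wnt proteins to the cell surface, at 775.6 ± 140.2 in FL1 and 757.5 ± 48.6 in DUKsi (adjusted p = 0.946), and Rspo2, a ligand of Lgr receptors, at 354.6 ± 68.2 and 464.1 ± 46.5 (adjusted p = 0.0653). The ligand Wnt10b, named after its values were seen, had the lowest adjusted p of the role, with 228 ± 57.1 in FL1 and 107.7 ± 53.8 in DUKsi (log2 difference 1.24, SE 0.336, adjusted p = 0.0358, FL1 higher in 34 of 36 pairs). Its adjusted p was under 0.05 in 15 of 28 alternatives, and 0.272 with the second array of each pool alone. DUKsi pools 2 and 5, at 50 and 37.9, lay near the dim limit of 48.4. All 12 other antagonists had a lower mean in FL1 on the deposited scale, where 61.7% of all probe sets were lower, but 7 of the 12 after quantile normalization and 9 after scaling to the same median, where 53.2% and 46.9% of all were lower. Their median log2 difference was -0.26, -0.13 and -0.17 in this order, and 6 of them were dim. The brightest of these were Frzb, a relative of the Sfrp proteins, at 233.3 ± 47.5 and 337 ± 21.5 (log2 difference -0.55, adjusted p = 0.016), and Apcdd1, at 211.1 ± 15 and 223.5 ± 64.9 (adjusted p = 0.91). By the brightest probe sets, Sfrp4 thus had a higher mean in FL1, and Frzb, Sfrp1, Sfrp2 and Dkk3 a lower one. None of them passed the test, and the limma adjusted p of Sfrp1, Sfrp2 and Dkk3 was 0.662, 0.656 and 0.292. Of the 14 genes of signal transduction Ctnnb1, which encodes beta-catenin, had 8531.3 ± 279.3 in FL1 and 7467.8 ± 293.6 in DUKsi (log2 difference 0.19, adjusted p = 0.0328). The Ctnnb1 difference was 0.10 after quantile normalization (adjusted p = 0.244), 0.13 over all its probe sets (adjusted p = 0.42) and 0.28 after scaling to the same median (adjusted p = 0.00615), and it passed by the methods' t-test on linear signals (adjusted p = 0.00506). The kinase gene Csnk1d had 3897.1 ± 242.3 and 3627.4 ± 258.3 (adjusted p = 0.389). Of the 10 other target genes listed, 4 had a lower and 6 a higher mean, and Axin2, at -0.13, and Wisp2, at 0.77, differed in sign. For Ccnd1, a target and cell cycle gene named here after its values were seen, the brightest probe set differed by -0.06 (adjusted p = 0.85), whereas another probe set of the gene fell by 0.54 (adjusted p = 0.00921) and its last one differed by -0.81 (adjusted p = 0.0161).

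**Figure D5:**
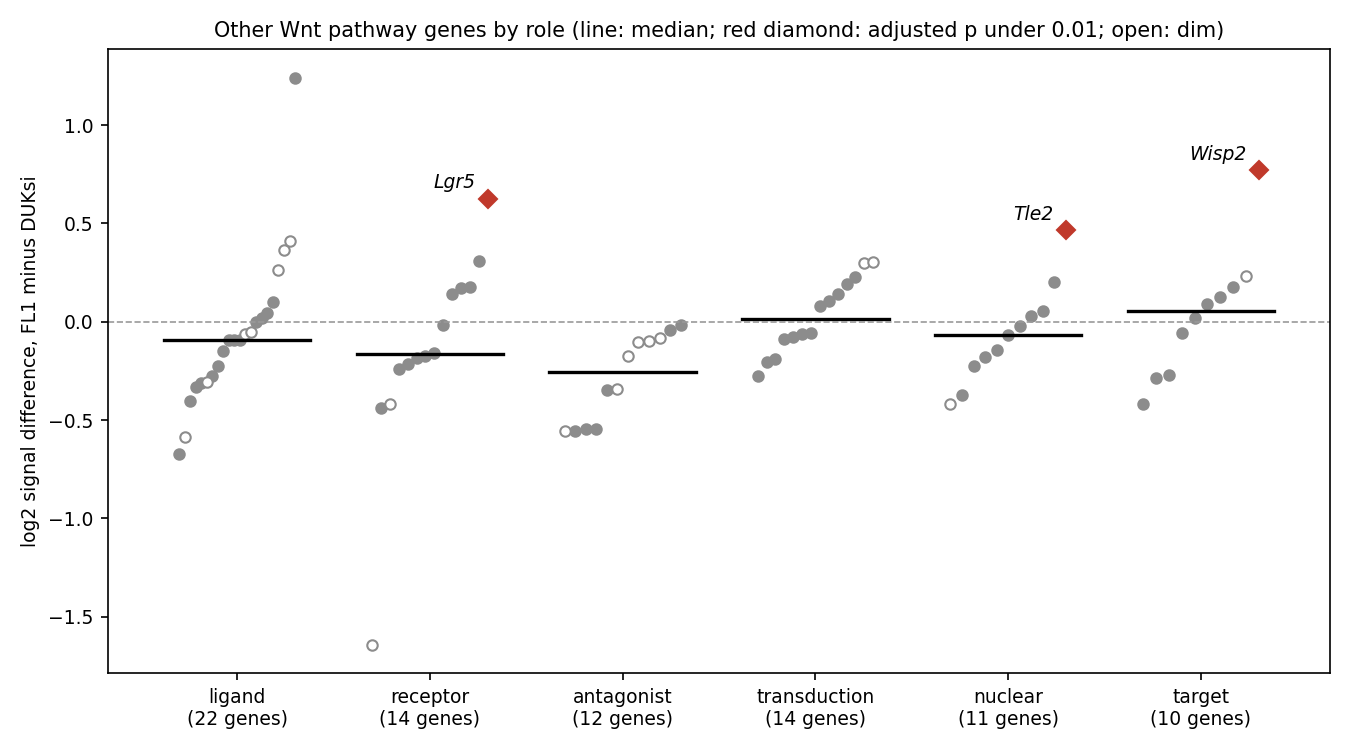
Log2 signal difference, FL1 minus DUKsi, of the 83 other pathway genes in 6 roles, each by its brightest probe set. Horizontal lines are the medians, red diamonds the genes past an adjusted p of 0.01, and open circles dim genes. Lgr5, Tle2 and Wisp2 lie at 0.63, 0.47 and 0.77, and all 12 antagonists lie below 0 on the deposited scale, against 7 after quantile normalization and 9 after scaling to the same median.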

How the data were processed

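Ovarian RNA of the lines FL1 and DUKsi was hybridized by the authors to Affymetrix MOE 430A arrays. The deposited values are linear intensity signals from MAS5, brought by the authors to 1 common target on every array. Their mean without 2% at each end was 500.1 in all arrays, and array medians ran from 212 to 244.5. The methods name Microarray Suite 5.0. Precision is limited by the 12 pools.

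Each pool's arrays were averaged on the linear scale, log2 was taken, and the lines were compared with limma 3.58.1 in R 4.3.3 (empirical Bayes with a trend), with 64 control probe sets left out and Benjamini-Hochberg adjustment over the other 22626. The threshold was an adjusted p under 0.01. The methods name a t-test without its form or scale; here it assumed equal variance and used linear signals, or log2 signals where named, with Benjamini-Hochberg adjustment in place of q-values. Probe sets were named by GEO's platform annotation, updated through RefSeq. A gene stands by its brightest probe set annotated to it alone. A probe set is dim if a line mean is under 48.4. The procedure was tested on simulated data.

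The 10 genes and all lists were chosen with earlier results of these data known. By rule the text names all members, pathway genes that passed or, in a role with none, the 2 brightest, and of each marker list up to 3 of the brightest, of which those that bear on a result are given. Marker lists not described in the report gave these numbers of genes higher and lower in FL1 past the test: 0 and 0 of 4 for theca, 0 and 1 of 9 for oocyte, 1 and 0 of 7 for stroma, 0 and 1 of 6 for smooth muscle, 1 and 0 of 8 for endothelium, 1 and 0 of 5 for surface epithelium, and 0 and 0 for oviduct (3), adipocyte (3) and macrophage (5). Of all probe sets 3.38% passed the test. By the methods, animals were pooled with regard to the size of the litter they came from. Same-numbered pools of the lines were not treated as pairs. Their deviations correlated at -0.26 to 0.17, which does not show how the pools were built. With 30 animals from 25 and 26 litters, pools of a line may hold littermates, and p-values measure the spread between these pools. Alternatives were each array alone, averaging after log2, single arrays with a random pool effect, quantile or median scaling, a constant added, the dimmest 40% of probe sets left out, both t-tests, limma without the trend or robust, a pool number block, the actin ratio as covariate, the mean over probe sets, other thresholds, and pools left out.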

Additional observations from a re-analysis of the deposited data

Results flagged for a closer look

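In 2 of 42 sets of 6 pools (21 probe sets in each line) the highest or lowest pool lay far from the others by Dixon's ratio, and chance gives about 1 in 20. Both were probe sets of Sfrp1. By the brightest probe set, DUKsi pool 6 was at 1458.0 and the other DUKsi pools at 846.1 to 1057.9, and the arrays of that pool gave 1314.1 and 1602. By the dimmest of its 4 probe sets, FL1 pool 3 was at 64.8 and the other FL1 pools at 261.3 to 360.3, and its arrays gave 57.1 and 72.5. FL1 pool 3 was the highest FL1 pool by the brightest Sfrp1 probe set, at 1431.3, and had the highest beta-actin 3' to 5' ratio, 2.46. The part of RNA integrity in the low value was not tested.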

How the results depend on the processing

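No value changed its sign while called. Of the 10 genes 0 passed, against 2 at an adjusted p under 0.05 (Sfrp4 and Fzd2), 1 with 24 arrays and the pool as a random block (Sfrp4, adjusted p = 0.00022), and 1 with the pool number as a replicate block (Sfrp4, adjusted p = 0.00249), although the numbers share no animals and no pool correlated best with its own number. The fit of 24 arrays took a common correlation within pools for all probe sets, so that its adjusted p for Sfrp4 can be too small. With each pool left out in turn 0 to 1 passed, Sfrp4 without DUKsi pool 3. Of the 83 other pathway genes 3 passed, against 6 at an adjusted p under 0.05, 1 with the second array alone (Wisp2), 5 with 24 arrays, 1 by the methods' t-test on linear signals (Ctnnb1, none of the 3), 1 by limma without the trend (Tle2), 1 with the replicate block (Wisp2), and 6 with the beta-actin covariate (Tle2 higher, and Bcl9, Ctbp2, Frzb, Gsk3a and Rspo2 lower). With each pool left out in turn 1 to 4 passed, and 1 when any of FL1 pools 4 and 6 and DUKsi pools 1 and 2 was left out. The cause of these changes was not tested. The difference of the beta-actin ratio, 0.399, was 0.241 to 0.468 with each pool left out. Wnt4, Fzd2, Sfrp1, Sfrp2, Dkk3, Axin2 and Tcf7l2 were lower in FL1 under all 28 alternatives, Fzd1 was higher in 25 of 27 (it is among the dimmest 40% of probe sets, which 1 alternative left out), and Fzd4 in 22 of 28. Quantile normalization moved the median of all probe sets from -0.07 to -0.02 and left 53.2% of them lower, and scaling to the same median moved it to 0.02 with 46.9% lower, while 17 of the 21 probe sets of the 10 genes were lower under each and the median of the 10 genes moved from -0.18 to -0.17 and -0.10. Signals near the dim limit, as those of the second Axin2 and Fzd4 probe sets, carry little information on a difference.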
